A study of Mus musculus with 6 samples.

Results

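Basal1 is a cluster of airway basal cells that the authors drew from droplet single-cell RNA-Seq of cultured mouse tracheal epithelium. Its members are all cells with that name in the deposited annotation, 2334 of 23871 cells, and they were set beside the other 15 clusters and then compared between genotypes. The cultures came from 3 *WT/WT* and 3 *MIS/MIS* C57BL/6 mice, each 12 weeks old. *MIS/MIS* mice carry on both *Dnaaf5* alleles a missense substitution made by CRISPR-Cas9, together with a nearby synonymous change, and *WT/WT* mice were littermates. *Dnaaf5* encodes a cytoplasmic factor for assembly of ciliary dynein motors. Cells of each trachea were first expanded as basal cells and then held at air-liquid interface, so the basal cells are those of a regrown culture and not of the native trachea. Each library is 1 mouse. The number of Basal1 cells was 136, 632 and 460 in *WT/WT* mice 1, 2 and 3, and 365, 245 and 496 in *MIS/MIS* mice MUT1301, MUT1306 and MUT1383.

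Basal cells are the stem cells of the pseudostratified airway. They sit on the basement membrane through laminins and integrins, are marked by keratins 5, 14 and 15 and the transcription factor p63, and give rise to secretory and multiciliated cells. After injury they flatten, loosen their anchorage, migrate over and rebuild the provisional matrix, in which fibronectin and its integrin receptors have a central place, while metalloproteinases cut matrix proteins and tissue inhibitors of metalloproteinases hold them in check.

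Values are unique molecular identifiers (UMIs) of a gene per 1000000 UMIs of a mouse's cells in a cluster, written CPM below. They are means ± SD over the 6 mice unless said otherwise. Basal1 cells had a median of 28982 UMIs and 5308 genes per cell and 9.13% mitochondrial UMIs, against 25557 UMIs, 4901 genes and 10.4% in the pooled cells of the other 7 basal clusters. Because the authors formed the clusters from the same expression values, levels in Basal1 against other clusters are a description and carry no test. The kit reads the 3′ end of transcripts, so a gene's level was compared between cells and not with that of another gene.

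Before the results, 1 set of cells has to be set apart. In *WT/WT* mouse 3, 10 of the 460 Basal1 cells held between 83 and 969 UMIs of *Col1a1* and *Col1a2*, the chains of type I collagen and the hallmark product of fibroblasts. No other Basal1 cell held more than 1. Per cell they also had 117 to 478 UMIs of *Fn1* and at most 1 UMI each of *Krt5* and *Krt14*, and a UMI of the epithelial adhesion gene *Epcam* was found in 0 of the 10, which allows a share of cells with such a UMI, not of cells expressing the gene, of up to 30%. A UMI of *Cdh6* was found in all 10, but of *Mmp12* and *Sox11* in 0 of them. These collagen I cells were 2.17% of that mouse's Basal1 cells but supplied 96.6% of its *Mgp* UMIs, 79.8% of its *Spp1* UMIs and 21.4% of its *Fn1* UMIs. The 12 mesenchymal markers measured summed to 323 CPM in Basal1 of *WT/WT* mouse 3, to 21.5 CPM there without the 10 cells, and to 4.33 to 24.8 CPM in the other 5 mice. For most named genes that these cells affected, values are therefore also given without them, a choice made after the data were seen.

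The cells as named carried their markers. *Fn1*, which encodes fibronectin, reached 628, 139.9 and 672 CPM in Basal1 of *WT/WT* mice 1, 2 and 3 and 601, 656 and 461 CPM in *MIS/MIS* mice MUT1301, MUT1306 and MUT1383. The highest other cluster of at least 50 cells, the neuroendocrine cells, of which 1 mouse had at least 20, had 5.35 CPM. *WT/WT* mouse 2 was the lowest for *Fn1*, and every mouse was far above its own other basal cells, where the mean was 1.97 ± 0.721 CPM. Without the collagen I cells *Fn1* in *WT/WT* mouse 3 was 548 CPM, still within the range of the other mice.

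*Mmp12*, the macrophage elastase, was at 154, 45.8 and 327 CPM in *WT/WT* mice 1, 2 and 3 and at 128, 74.1 and 167 CPM in MUT1301, MUT1306 and MUT1383, against 0.170 ± 0.0978 CPM in the other basal cells. *Sox11*, a SoxC transcription factor of embryonic and regenerating tissues, stood at 314, 60.1 and 235 CPM in the *WT/WT* mice and 149, 374 and 225 CPM in the *MIS/MIS* mice. *Cdh6*, which encodes a classical cadherin, was found at 240.4, 106 and 242 CPM and at 143, 294 and 284 CPM in the same order. For *Mmp12*, *Sox11* and *Cdh6*, as for *Fn1*, *WT/WT* mouse 2 gave the lowest level, and in none of the 4 genes did the 2 genotypes separate. The next clusters were at 0.892 CPM for *Mmp12*, again the neuroendocrine cells, 5.83 CPM for *Sox11* and 10.6 CPM for *Cdh6*.

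*Krt14*, the keratin 14 of basal cells, behaved differently. It was at 2196, 795 and 2768 CPM in Basal1 of the *WT/WT* mice and at 683, 533 and 816 CPM in the *MIS/MIS* mice. This was above the other basal cells of the same mouse in 6 of 6 mice. The Basal4 mean of 1638.5 CPM was above the Basal1 mean of 1298.5 ± 939.8 CPM. However, the Basal4 mean covered only the 4 mice with at least 20 such cells. It left out *WT/WT* mouse 2 and MUT1301, so the means were not over the same mice. *Krt14* was therefore high in Basal1 without being particular to it, whereas the other 4 markers were at least 18.9-fold above the next cluster (offset 1 CPM).

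**Figure D1:**
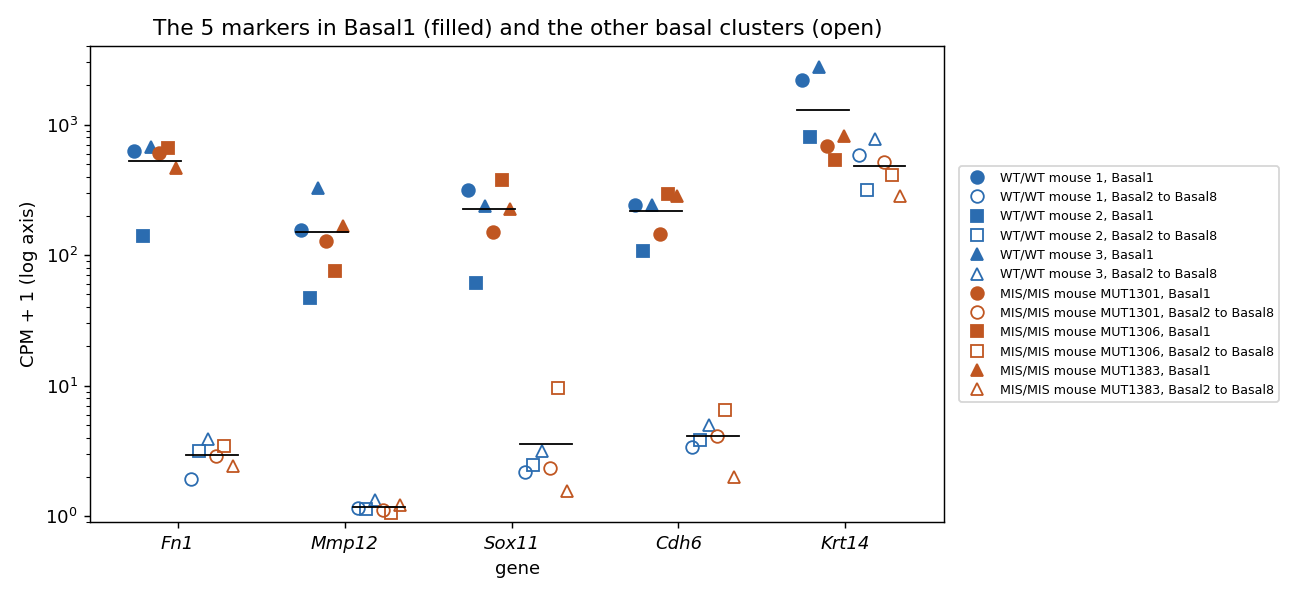
Level of each of the 5 markers (horizontal axis) in CPM + 1 on a log axis. Filled symbols are Basal1 and open symbols the pooled Basal2 to Basal8 cells of the same mouse, blue for *WT/WT* and orange for *MIS/MIS*, and horizontal lines are means over the 6 mice. *Fn1*, *Mmp12*, *Sox11* and *Cdh6* lie far above the other basal cells in every mouse, with *WT/WT* mouse 2 lowest, and *Krt14* overlaps between the cell groups of different mice.

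Among all genes with at least 50 CPM in Basal1, the 20 with the highest ratio to the next cluster began with *Fn1*, at 83.0-fold, and *Mmp12*, at 79.5-fold. For both the next cluster was the neuroendocrine cells, of which 1 mouse had at least 20. *Mmp12* was at 0.892 CPM there, below the offset of 1 CPM, so its ratio depends on that offset. After *Sox11* came *Ccl5*, a chemokine for T cells and eosinophils, at 28.8-fold, and *Csf2*, which encodes the growth factor GM-CSF, at 28.8-fold. *Mmp13*, collagenase 3, followed at 25.9-fold and *Cdh6* at 18.9-fold. *Ctsw*, a cathepsin best known from cytotoxic lymphocytes, was at 17.6-fold. The remaining 12 were *Lgals1*, *Akr1b3*, *Spp1*, *Pdgfb*, *Rflnb*, *Inhba*, *Ifit3*, *Prss23*, *Pdlim7*, *Timp1*, *Cst6* and *Mgp*, at 8.09-fold down to 3.21-fold. Without the collagen I cells 18 of the 20 remained, and *Timp1* and *Mgp* gave way to *Pdlim4* and *Lgr6*. *Lgals1* was then at 6.70-fold, against 8.09-fold with them.

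**Figure D2:**
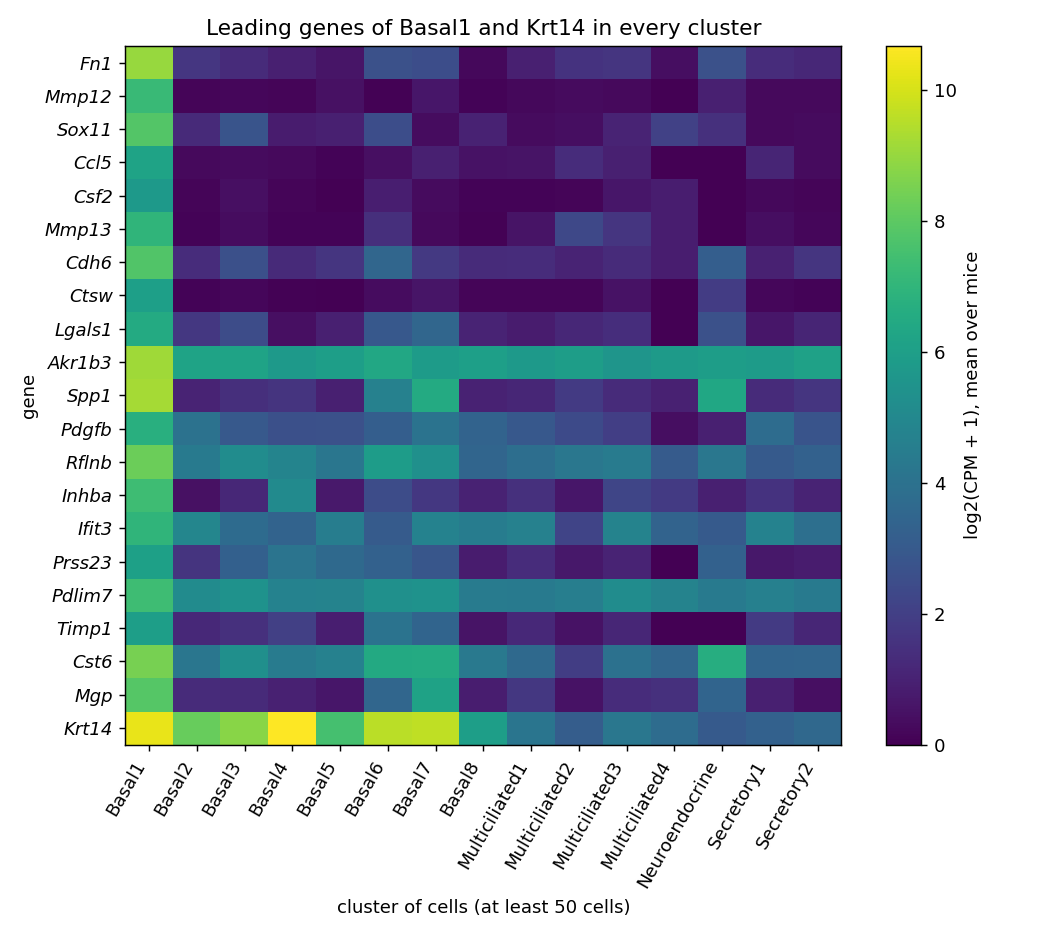
Mean level of the 20 leading genes of Basal1 and of *Krt14* (rows) in the 15 clusters of at least 50 cells (columns), as log2(CPM + 1) on a color scale. The column of Basal1 is the brightest in each of the 20 leading rows. In the row of *Krt14* Basal4, a mean over 4 mice, is brighter.

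The leading genes differed in how evenly the mice shared them. *Pdgfb*, a platelet-derived growth factor chain that attracts mesenchymal cells, was at 98.1, 70.6 and 92.9 CPM in the *WT/WT* mice and 127, 138 and 104 CPM in the *MIS/MIS* mice. *Pdlim7*, a PDZ and LIM protein of actin bundles, ranged only from 109.9 to 196 CPM. *Inhba*, the subunit of activin A, lay between 54.6 and 241 CPM, and Basal4 followed at 33.9 CPM.

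In others the level differed widely between mice. *Mmp13* was at 404 CPM in *WT/WT* mouse 1 and between 27.4 and 97.9 CPM in the other 5 mice. *Ccl5* was at 206 CPM in *WT/WT* mouse 1 but at 12.3 and 8.18 CPM in *WT/WT* mice 2 and 3. *Akr1b3*, which encodes an aldose reductase, ran from 119 CPM in *WT/WT* mouse 3 to 1035 CPM in *WT/WT* mouse 2. *Mgp*, which encodes matrix Gla protein, was at 1283 CPM in *WT/WT* mouse 3 and at 4.94 to 35.5 CPM in the other mice. Without the 10 collagen I cells it was at 45.4 CPM there, with a mean of 24.2 ± 14.9 CPM over the 6 mice, which is below the 71.1 CPM of Basal7. *Spp1*, which encodes the matrix phosphoprotein osteopontin, was at 1239.8 CPM in *WT/WT* mouse 3 with these cells and at 259 CPM without them, yet its mean of 434 ± 132 CPM stayed above the 91.3 CPM of Basal7.

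The stretches before the starts of both metalloproteinases among the leading genes and of the marker *Cdh6* are shown. They are RefSeq sequences of the GRCm38.p6 build, the 250 bases before a transcription start, read 5′ to 3′ on the strand of the gene. Capitals mark matches, on either strand, to the AP-1 motif TGANTCA, the TEAD motif GGAATG or the SOX motif ACAANG. *Mmp13* lies on the plus strand, chr9:7272264-7272513. *Mmp12*, also on the plus strand, has 2 listed starts, the first at the 5′ end of the gene, chr9:7344147-7344396, and the second inside it, chr9:7347124-7347373. *Cdh6* lies on the minus strand, chr15:13173676-13173925.
Mmp13: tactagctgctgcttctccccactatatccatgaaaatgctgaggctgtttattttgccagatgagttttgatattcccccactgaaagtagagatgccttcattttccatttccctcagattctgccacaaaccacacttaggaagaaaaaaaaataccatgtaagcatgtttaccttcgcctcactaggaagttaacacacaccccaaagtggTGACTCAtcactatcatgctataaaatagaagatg
Mmp12, first start: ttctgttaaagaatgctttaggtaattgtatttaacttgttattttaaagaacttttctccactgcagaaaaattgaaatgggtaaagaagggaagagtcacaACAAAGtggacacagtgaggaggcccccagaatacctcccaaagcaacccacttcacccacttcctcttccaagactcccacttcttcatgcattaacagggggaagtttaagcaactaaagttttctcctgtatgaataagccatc
Mmp12, second start: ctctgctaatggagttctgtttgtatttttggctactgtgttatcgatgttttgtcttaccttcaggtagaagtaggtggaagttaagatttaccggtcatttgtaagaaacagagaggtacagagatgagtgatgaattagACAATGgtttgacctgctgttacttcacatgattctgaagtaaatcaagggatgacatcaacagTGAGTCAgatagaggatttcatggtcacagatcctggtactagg
Cdh6: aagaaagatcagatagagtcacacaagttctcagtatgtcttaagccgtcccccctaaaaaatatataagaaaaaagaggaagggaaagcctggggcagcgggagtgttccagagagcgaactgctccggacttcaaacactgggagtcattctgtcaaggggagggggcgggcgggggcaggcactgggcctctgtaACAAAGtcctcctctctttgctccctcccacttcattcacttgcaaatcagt

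The *Mmp13* stretch held 1 AP-1 match, 35 to 29 bases before the start. For *Mmp12* the first start had 1 SOX match and no AP-1 match, and the second, internal start had 1 AP-1 match, 44 to 38 bases before it, and 1 SOX match. The *Cdh6* stretch held 1 SOX match. Of 21 genes, the 20 leading ones and *Krt14*, 13 had an entry in the table, with 21 stretches in all. At any listed start an AP-1 match was found in 4 of the 13 (*Ifit3*, *Mmp12*, *Mmp13* and *Prss23*), a TEAD match in 3 and a SOX match in 5. For *Prss23* the AP-1 matches lay only before starts inside the gene, and its stretch at the 5′ end of the gene held none. The *Krt14* stretch, which held a TEAD match, also lay inside the gene. Of the 27018 genes in the table the shares counted in the same way were 7.82%, 14.4% and 39.9%, and of its 32841 single stretches 6.75%, 12.6% and 36.3%. A match describes letters in the window and not a bound site.

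Among the gene lists, extracellular matrix had the largest share of members at least 2-fold higher in Basal1. The list was chosen for this comparison with earlier results of these data known. It holds the marker *Fn1* and the leading gene *Spp1*, so its share is not independent of how the cluster was described. Of its 33 genes, 21 reached 5 CPM in Basal1 or in the other basal cells. Of these, 16 were at least 2-fold higher in Basal1 and 0 at least 2-fold lower, and 12 had their highest level of all clusters of at least 50 cells in Basal1. The median log2 ratio was 1.76, beside 0.08 over the 10077 genes at that level, of which 5.32% were at least 2-fold higher and 4.27% at least 2-fold lower. Of the same 10077 genes, 790 had their highest level in Basal1. In 6 of 6 mice 2974 of them were higher in Basal1 and 1851 lower. Without the collagen I cells 14 of 19 genes of the list were at least 2-fold higher, with a median of 1.67. *Col5a2* and *Fbln2* then no longer reached 5 CPM.

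Laminin chains differed among themselves. *Lama3* was at 107 ± 30.1 CPM against 24.6 ± 3.67 CPM in the other basal cells. *Lamb3* stood at 117 ± 30.5 against 57.2 ± 13.1 CPM. *Lamb1* was 3.49-fold higher, at 24.1 ± 7.004 against 6.197 ± 3.24 CPM. Each of these was higher in 6 of 6 mice. *Lama5* and *Lamc1* were at 43.7 ± 9.03 against 42.0 ± 8.66 CPM and at 22.8 ± 2.05 against 25.6 ± 4.14 CPM.

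*Ltbp1*, which tethers latent TGF-β in the matrix, was 18.5-fold higher at 39.0 ± 11.1 CPM. *Sparc*, a collagen-binding matricellular protein, was 5.88-fold higher at 210.3 ± 65.7 CPM, and without the collagen I cells it was at 184 ± 39.9 CPM. *Ccn2*, a matricellular protein and target of the YAP coactivator, was 3.21-fold higher, with 251, 191 and 341 CPM in the *WT/WT* mice and 538, 567 and 283 CPM in the *MIS/MIS* mice. *Thbs1* (thrombospondin 1) was 3.39-fold above the other basal cells but not highest in Basal1, since 2 clusters exceeded it. Without the collagen I cells, which gave 27.8% of its UMIs in *WT/WT* mouse 3, *Thbs1* was 3.22-fold higher.

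Of 28 matrix proteases and inhibitors, 23 reached 5 CPM, 8 were at least 2-fold higher in Basal1, and 1 was lower, with a median log2 ratio of 0.42. Besides *Mmp12* and *Mmp13*, *Mmp10* (stromelysin 2) was at 11.1 ± 4.27 CPM against 0.0574 ± 0.0438 CPM. *Adam12*, a disintegrin and metalloproteinase, was at 17.0 ± 9.17 against 0.457 ± 0.217 CPM, and *Plau*, which encodes the plasminogen activator urokinase, at 12.0 ± 3.24 against 1.17 ± 0.542 CPM. *Mmp7* (matrilysin) was the gene that was lower, at 0.263 ± 0.266 CPM against 14.2 ± 19.4 CPM. Inhibitors were mixed. *Timp1* was 13.5-fold higher, although 45.0% of its UMIs in *WT/WT* mouse 3 came from the collagen I cells, while *Timp2* was at 367 ± 51.6 against 266 ± 57.5 CPM and *Timp3* at 132 ± 59.0 against 163 ± 63.6 CPM. The call for *Ctsk*, the collagenolytic cathepsin K, which was counted among the 8, came from the collagen I cells, since 7 of 22 genes were at least 2-fold higher without them.

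The integrins were mixed. *Itga2*, the collagen receptor subunit, was 5.08-fold higher at 88.8 ± 17.7 CPM. *Itgb6*, an epithelial subunit induced at wound edges, was 4.06-fold higher at 121 ± 31.6 CPM and *Itga5*, of the fibronectin receptor, 4.01-fold higher at 10.5 ± 4.33 CPM. Without the collagen I cells *Itga5* was 3.66-fold higher at 9.46 ± 3.58 CPM. *Itgb1* was at 414 ± 83.2 against 208 ± 13.0 CPM. Each of these 4 was higher in 6 of 6 mice. *Itga6* and *Itgb4*, which form the hemidesmosomal integrin, were at 155 ± 34.3 against 138 ± 20.99 CPM and at 122 ± 30.7 against 143 ± 28.5 CPM. *Itgav*, an αv chain that pairs with several β chains, was 1.47-fold higher in 5 of 6 mice, and the collagen receptor subunit *Itga1* was at 0.897 ± 0.426 against 1.57 ± 0.358 CPM. In all, 3 of 9 integrins at 5 CPM were at least 2-fold higher and 0 lower, with a median log2 ratio of 0.55.

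Of 28 genes of migration and epithelial plasticity, 23 reached 5 CPM, 12 were at least 2-fold higher and 2 at least 2-fold lower, with a median log2 ratio of 1.28 (10 and 2 of 21 genes and 0.99 without the collagen I cells). *Vim*, the mesenchymal intermediate filament vimentin, was counted among the 12 through *WT/WT* mouse 3, where it was at 65.9 CPM with and 0.829 CPM without the 10 cells. *Epcam* was at 1551, 777 and 1518 CPM in the *WT/WT* mice and 1384, 1824 and 1456 CPM in the *MIS/MIS* mice, against 389 ± 45.4 CPM in the other basal cells, and *Cdh1* (E-cadherin) was at 242 ± 47.7 against 192 ± 17.8 CPM. *Cd44*, a receptor for hyaluronan, was 4.32-fold higher, *Hmga2*, a chromatin protein of embryonic and regenerating tissue, 4.66-fold higher and *Tpm1*, an actin-binding tropomyosin, 3.13-fold higher. *Snai2*, a transcription factor of epithelial-mesenchymal transition, was at 17.98 ± 9.44 against 29.5 ± 8.74 CPM and was lower in 6 of 6 mice. *Zeb1*, another such factor, was 4.44-fold higher in 6 of 6 mice, at 5.27 ± 1.65 against 0.411 ± 0.183 CPM. The collagen I cells gave 45.0% of the *Zeb1* UMIs in *WT/WT* mouse 3. Without them *Zeb1* was 4.09-fold higher at 4.78 ± 1.52 CPM, which is below 5 CPM.

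**Figure D3:**
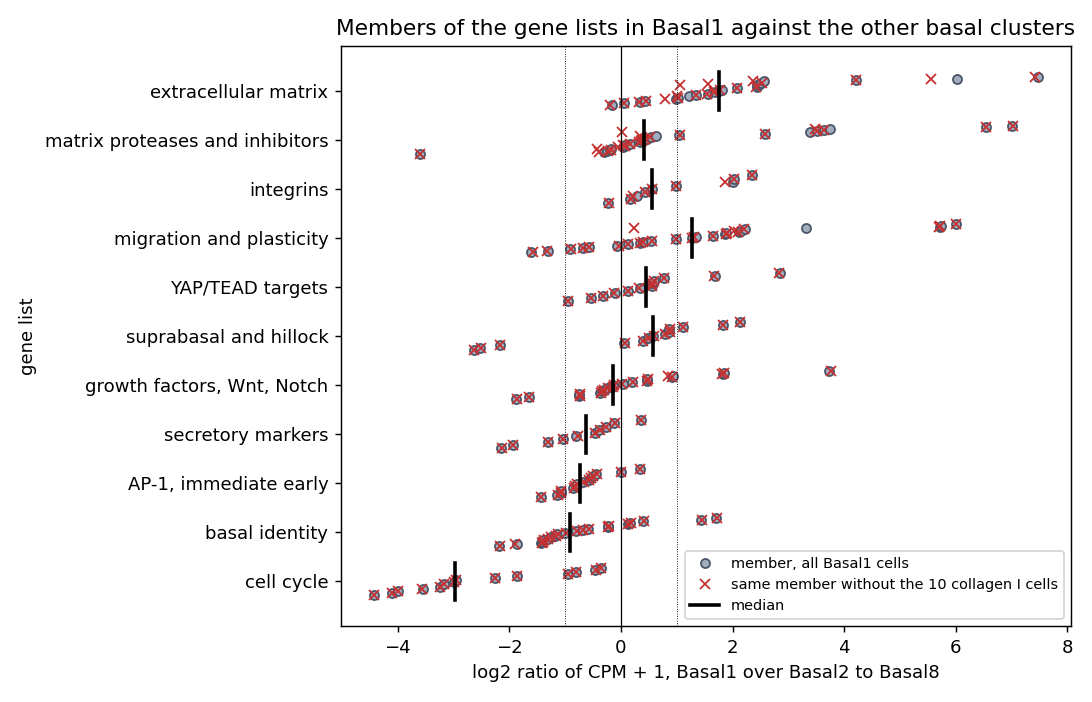
Each gray circle is a gene of a list (rows) with at least 5 CPM in Basal1 or the other basal cells, placed by its log2 ratio of mean CPM + 1 in Basal1 over Basal2 to Basal8. Red crosses give the same gene without the 10 collagen I cells, thick bars are medians, and dotted lines mark 2-fold. The extracellular matrix list lies mostly to the right, with a median of 1.76, and the cell cycle list to the left, with a median of -2.97.

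Signals were more selective. Of 24 growth factor, Wnt and Notch genes, 19 reached 5 CPM, 3 were at least 2-fold higher and 2 lower, with a median log2 ratio of -0.13. The 3 were *Fst* (follistatin, the binding protein of activins), at 109 ± 119 against 7.25 ± 5.31 CPM, *Jag1*, a Notch ligand, at 87.2 ± 37.6 against 23.5 ± 7.35 CPM, and *Pdgfc*, at 17.8 ± 5.89 against 4.26 ± 2.07 CPM. The other Jagged ligand, *Jag2*, was 3.14-fold lower, at 13.7 ± 3.27 against 45.1 ± 10.99 CPM, and *Wnt4* 3.68-fold lower, at 126 ± 18.9 against 467 ± 40.96 CPM, both in 6 of 6 mice. *Wnt7b* was at 109.8 ± 12.7 against 57.9 ± 6.84 CPM and had its highest level in Basal1.

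Among targets of YAP and TEAD, 2 of 12 genes were at least 2-fold higher and 0 lower, with a median log2 ratio of 0.44. The 2 were *Ccn2* and *Ankrd1*, which was at 8.46 ± 4.59 against 0.312 ± 0.290 CPM. Of 14 genes of AP-1 and of the immediate early response, 4 were at least 2-fold lower and 0 higher, with a median log2 ratio of -0.73. *Fos* was at 205 ± 55.8 against 435 ± 52.6 CPM and *Egr1* at 214 ± 59.4 against 579.9 ± 42.5 CPM, both lower in 6 of 6 mice. *Jund* was at 586 ± 63.97 against 463 ± 63.04 CPM and higher in 6 of 6 mice, and *Klf6* was at 300.01 ± 109 against 300.3 ± 89.2 CPM.

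The genes that define basal cells were present, but many were lower than in the pooled other basal cells. Of 20 basal identity genes, 2 were at least 2-fold higher in Basal1 and 10 at least 2-fold lower, with a median log2 ratio of -0.90. *Trp63*, which encodes p63, was at 22.3, 13.0 and 61.6 CPM in *WT/WT* mice 1, 2 and 3 and at 16.6, 16.0 and 16.2 CPM in the *MIS/MIS* mice, against 66.6 ± 11.3 CPM in the other basal cells. Only *WT/WT* mouse 3 came near that level. *Krt15* was at 1956 ± 563 against 4867 ± 586 CPM, and *Dapl1*, *Pdpn* and *Aqp3*, an epithelial water channel, were 4.56-fold, 3.63-fold and 2.69-fold lower, each in 6 of 6 mice. *Krt5* was at 242, 246 and 809 CPM in the *WT/WT* mice and 213, 174 and 177 CPM in the *MIS/MIS* mice, against 541 ± 174 CPM. The 2 higher genes were the keratins *Krt14* and *Krt17*, and *Krt17*, a keratin of wounded epithelium, was 3.27-fold higher. For a cluster named basal, Basal1 was therefore low in p63 and keratin 15 against the pooled other basal cells, and high in keratins 14 and 17. Among the clusters of at least 50 cells it ranked 6th for *Trp63*, 4th for *Krt5* and 9th for *Krt15*. Basal4 was highest for *Trp63* (113 CPM) and *Krt5* (1202 CPM), as a mean over the 4 mice with at least 20 Basal4 cells. Not every other basal cluster was thus above Basal1 in *Trp63* and *Krt5*.

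Of the luminal keratins, *Krt8* and *Krt18* were higher and *Krt19* was not, at 1929 ± 427 against 1849 ± 432 CPM and higher in 3 of 6 mice. *Krt8* was at 826, 985 and 1788 CPM in the *WT/WT* mice and 2051, 1560.5 and 1360 CPM in the *MIS/MIS* mice, against 403 ± 137 CPM, and *Krt18*, its partner, was 4.38-fold higher. Both had their highest mean of the clusters of at least 50 cells in Basal1, but by a narrow margin. *Krt8* was at 1428 CPM in Basal1 and 1281 CPM in Multiciliated2. *Krt18* was at 1400 CPM in Basal1 and 1291 CPM in Basal7. The keratins of hillock cells, *Krt4* and *Krt13*, were 5.74-fold and 6.21-fold lower than in the pooled other basal cells. Basal4 weighed most in this, at 3967 CPM of *Krt4* and 7144 CPM of *Krt13*. Basal1, at 209 CPM of *Krt13*, was above each of the other 6 basal clusters, and at 178 CPM of *Krt4* above 3 of them. For *Krt13* the other basal cells varied widely, at 1302 ± 2006 CPM, and 2 of 6 mice had more in Basal1. In the list of 13 suprabasal and hillock genes at 5 CPM, 3 were at least 2-fold higher and 3 at least 2-fold lower.

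Basal1 did not share the transcripts of the cycling cells, which lay in Basal6. Of 14 cell cycle genes at 5 CPM, 10 were at least 2-fold lower in Basal1 and 0 higher, with a median log2 ratio of -2.97. *Mki67* was at 0.849 ± 0.166 against 28.5 ± 14.8 CPM and *Top2a* at 1.78 ± 0.506 against 46.8 ± 21.8 CPM. Basal6 alone had 231.6 CPM of *Mki67* and 390.2 CPM of *Top2a*, and the other 6 basal clusters had 0.331 to 1.85 CPM and 0.502 to 1.91 CPM, so low levels of these genes were not particular to Basal1. *Pcna*, a clamp of replication and repair, was at 81.6 ± 7.22 against 104 ± 27.0 CPM.

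The 10 genes of at least 50 CPM in the other basal cells with the lowest ratio in Basal1 began with the mitotic ubiquitin-conjugating enzyme *Ube2c*, at 1.55 ± 0.412 against 53.7 ± 30.1 CPM. For this gene too the difference came from Basal6, at 421.9 CPM, since *Ube2c* was at 0.5497 to 2.57 CPM in the other 6 basal clusters. *Defb1*, which encodes a β-defensin, was 15.3-fold lower and *Hlf*, a transcription factor of the PAR bZIP family, 7.66-fold lower. *Cyp4a12b*, *Aox3*, *Cavin2*, *Krt13*, *Krt4*, *Acsl1* and *1810010H24Rik* followed, at 7.65-fold down to 5.07-fold. Except for *Krt13*, each was lower in 6 of 6 mice.

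Of 10 secretory genes at 5 CPM, 4 were at least 2-fold lower and 0 higher, with a median log2 ratio of -0.63. Among the markers of other cell types, the 17 multiciliated markers summed to 37.9 to 72.5 CPM in Basal1 of the 6 mice and to 42.0 to 93.5 CPM in their other basal cells. The 9 leukocyte markers measured summed to 29.03 to 181 CPM in Basal1, most of it *Lyz2* (67.4 ± 51.9 CPM), and to 82.6 to 515 CPM in the other basal cells. The pan-leukocyte marker *Ptprc* was at 0.0184 ± 0.045 CPM in Basal1. Ionocyte, neuroendocrine and tuft markers summed to at most 6.15, 5.04 and 25.9 CPM. The lists of dynein assembly factors, of stress and quality genes and of sex-linked genes had median log2 ratios of 0.11, 0.11 and 0.02.

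Basal1 cells differed from one another in how many of its 4 selective markers (*Fn1*, *Mmp12*, *Sox11*, *Cdh6*) they showed. A UMI of *Cdh6* was found in 62.0% of the cells, of *Sox11* in 52.2%, of *Fn1* in 50.6% and of *Mmp12* in 15.7%. At least 1 of the 4 was found in 75.7% of Basal1 cells, in 8.64% of other basal cells, in 5.45% of Secretory1 cells and in 3.76% of Multiciliated3 cells, at median depths of 28982, 25557, 33387 and 26360 UMIs per cell. With every cell thinned to 5000 UMIs, which left out 0 cells of these groups, the shares were 59.8%, 2.41%, 1.21% and 1.14%. None of the 4 was found in 567 cells (24.3%), and all 4 in 275 (11.8%).

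The mice differed in this. In the *WT/WT* mice 9.56%, 40.3% and 28.9% of Basal1 cells had none of the 4 markers, and in the *MIS/MIS* mice 13.7%, 7.76% and 19.6%. *WT/WT* mouse 2, the lowest for each marker above, had the largest share of such cells and the lowest median depth, 23298 UMIs per cell against 24040.5 to 38460.5 in the other mice. After thinning it kept the largest share, 56.0%, against 19.9% to 44.1% in the others.

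The number of markers went with a graded shift in some other genes. These levels describe cells of 1 cluster that were sorted by their own markers and are not tested, and the collagen I cells were left out of them. Some groups were small. Cells with no marker numbered 13 in *WT/WT* mouse 1 and 19 in MUT1306, and cells with 1 marker 13 in *WT/WT* mouse 1. In cells with 3 or 4 markers (855 cells, median depth 29865 UMIs) *Inhba* was at 306 ± 96.1 CPM, against 8.42 ± 8.81 CPM in cells with none (567 cells, 26913 UMIs). *Mmp13* was at 234 ± 206 against 6.98 ± 7.95 CPM and *Lgals1*, which encodes galectin 1, at 142 ± 30.04 against 6.08 ± 3.49 CPM. *Epcam*, *Krt8* and *Krt18* were 4.03-fold, 2.80-fold and 2.68-fold higher with 3 or 4 markers, in 6 of 6 mice.

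Keratins of the basal and hillock kind ran the other way. *Krt15* was at 612 ± 165 CPM with 3 or 4 markers and at 4714 ± 2069 CPM with none, close to the 4867 CPM of the other basal cells. *Krt5* went from 678 ± 481 CPM with none to 113 ± 67.6 CPM with 3 or 4, and *Krt4* from 815 ± 938 to 11.4 ± 9.49 CPM, both lower in 6 of 6 mice. *Krt14* did not share this, at 1042 ± 647 and 1367 ± 856 CPM.

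Of the 16 leading genes other than these 4, 12 were higher with 3 or 4 markers than with none in 6 of 6 mice. Their choice as leading genes of the cluster favors such a result. The share over all genes was not counted, so no conclusion is drawn from this number. *Ifit3*, an interferon-induced gene, was the opposite in 6 of 6 mice, at 277 ± 171 CPM with none and 69.1 ± 42.5 CPM with 3 or 4 markers. In 6 of the 16 genes, which were chosen for being high in Basal1 as a whole, the cells with none were above the other basal cells in every mouse. For this comparison too the share over all genes was not counted. *Cst6*, which encodes cystatin E/M, was 8.29-fold above the other basal cells even in cells with no marker, and *Ctsw* 6.30-fold.

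**Figure D4:**
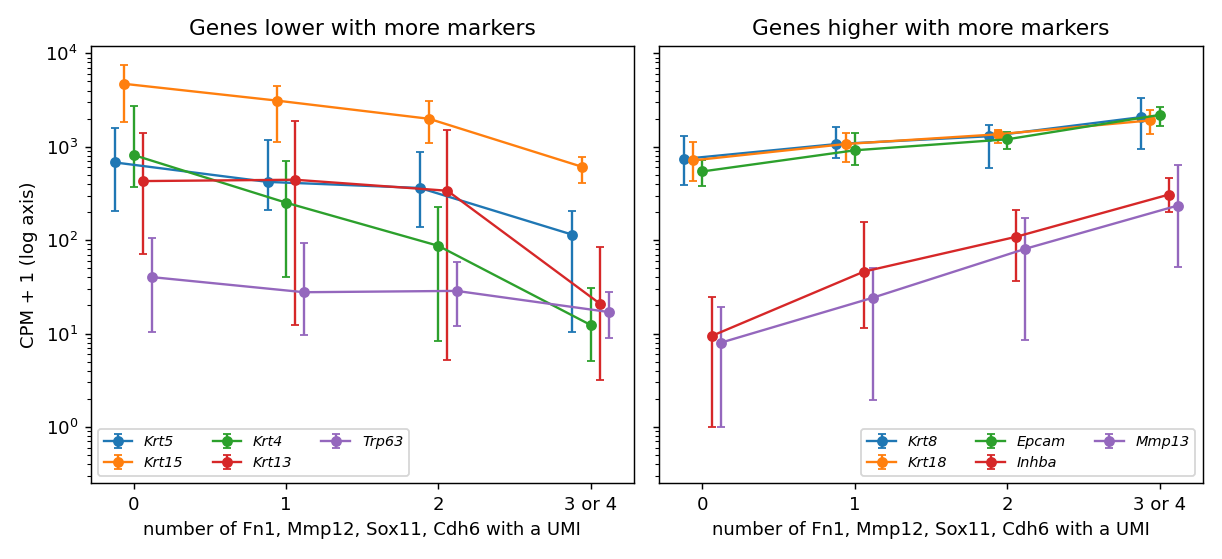
Level in CPM + 1 (log axis) of genes in Basal1 cells grouped by how many of *Fn1*, *Mmp12*, *Sox11* and *Cdh6* had a UMI (horizontal axis). Points are means over the 6 mice and bars reach from the lowest to the highest mouse. *Krt15* and *Krt4* are lower and *Epcam*, *Inhba* and *Mmp13* higher at each further step.

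The second question was whether the missense genotype changed the cluster. Basal1 made up 4.79%, 13.0% and 16.6% of the cells of *WT/WT* mice 1, 2 and 3 and 9.05%, 9.17% and 7.39% of those of the *MIS/MIS* mice. The means were 11.5% ± 6.06 and 8.54% ± 0.994 (SD, n = 3 each), and the groups overlapped (two-sided exact permutation test, p = 0.50, where 3 mice against 3 can give no p below 0.10). Of basal cells alone the shares were 7.42%, 33.3% and 30.4% against 20.07%, 20.02% and 17.5% (exact permutation test, p = 0.50). The *WT/WT* mice were more spread than the *MIS/MIS* mice, and *WT/WT* mouse 1, which had the lowest share, had 57.1% of its basal cells in Basal4.

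For gene expression the counts of Basal1 cells were summed per mouse, which gave 5458824 to 16835494 UMIs on 12691 genes, and tested with limma. At an adjusted p below 0.05, 0 genes passed (0.0%), by voom and by limma-trend alike, and the smallest adjusted p was 0.74. At an unadjusted p below 0.05 there were 598 genes (4.71%) with voom and 623 with limma-trend. The 3 mice of each genotype did not overlap in 713 genes that were higher in *MIS/MIS* (5.62%) and in 614 that were lower (4.84%). Within a genotype the mice varied with a median SD of 0.23 (log2). The labels do not say which mice were cultured or sequenced together, so such batches could not be examined.

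*Dnaaf5* itself was at 8.23, 6.65 and 7.195 CPM in Basal1 of the *WT/WT* mice and at 9.82, 6.39 and 7.30 CPM in the *MIS/MIS* mice, with a log2 fold change of 0.04 (SE 0.20). A missense allele need not alter its transcript level, so this does not check the genotype labels. The 5 markers did not separate the genotypes in a call. Log2 fold changes were 0.40 for *Fn1* (SE 0.54), 0.41 for *Sox11* (SE 0.60), 0.23 for *Cdh6* (SE 0.37), -0.27 for *Mmp12* (SE 0.65) and -1.47 for *Krt14* (SE 0.40). Without *WT/WT* mouse 2 the sign of *Fn1*, *Sox11* and *Cdh6* turned negative. After normalization the mice did not overlap for *Krt14*, but it was not called (limma, adjusted p = 0.95).

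The lowest p belonged to *Wdfy1*, whose protein is an adaptor of Toll-like receptor signalling on endosomes. Its log2 CPM was 4.21, 5.21 and 4.57 in the *WT/WT* mice and 6.37, 6.42 and 6.35 in the *MIS/MIS* mice. Each *MIS/MIS* mouse was above each *WT/WT* mouse, by a log2 fold change of 1.65 (SE 0.22). The adjusted p was 0.74 by limma voom with all mice and ranged from 0.032 to 1.00 over the alternatives, and only without *WT/WT* mouse 2 was it called (log2 fold change 1.94). The log2 fold change in the other basal cells was 1.77. In the separate fit of the ratio of Basal1 to the other basal cells within each mouse, the genotype difference was -0.04 (SE 0.23).

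Next by p came *Vcam1*, an adhesion molecule for leukocytes, at log2 CPM 5.32, 4.69 and 4.74 in the *WT/WT* mice and 6.07, 6.06 and 5.95 in the *MIS/MIS* mice. *Cxcl17*, a chemokine of mucosal surfaces, *F5*, coagulation factor V, and *Prom1*, the membrane protein prominin 1, were also higher in the 3 *MIS/MIS* mice without overlap. Their log2 fold changes were 1.05 (SE 0.16), 1.67 (SE 0.26) and 1.32 (SE 0.21). None passed the threshold. *F5* and *Prom1* rested on 17 to 38 and 32 to 90 UMIs per *WT/WT* mouse.

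Lower without overlap, and also not called, were *Gm47283*, *Vgll3*, *Sgk1*, *Cysrt1* and *Gstp1*. *Vgll3*, a cofactor of TEAD transcription factors, was at log2 CPM 3.70, 3.64 and 3.55 in the *WT/WT* mice and 2.95, 2.63 and 2.62 in the *MIS/MIS* mice, a log2 fold change of -0.87 (SE 0.15). *Sgk1*, a kinase that regulates epithelial sodium transport, had a log2 fold change of -0.71 (SE 0.13) and *Gstp1*, a glutathione transferase, of -0.55 (SE 0.11). *Gm47283* showed the widest difference, -4.97 (SE 0.86), but its locus lies at the end of chromosome Y, in the part paired with X, and reads of near-identical copies may not be told apart.

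**Figure D5:**
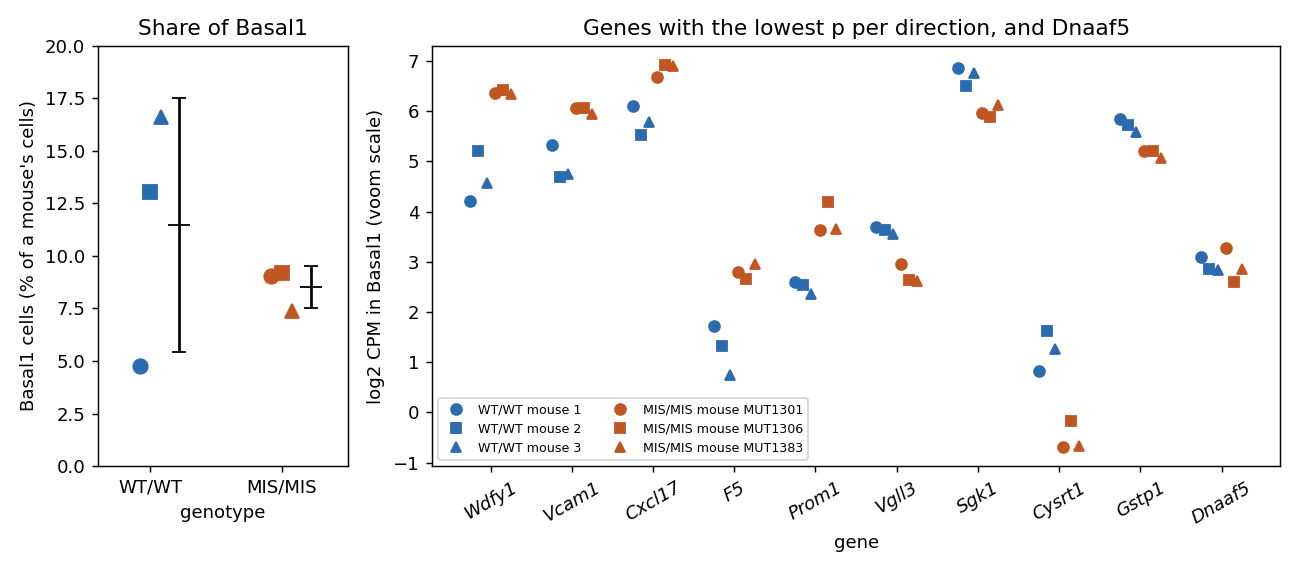
Left, Basal1 cells as a percentage of each mouse's cells, with mean and SD beside the points. Right, log2 CPM in Basal1 of named genes with the lowest p that did not overlap between genotypes, and of *Dnaaf5*, 1 symbol per mouse, blue for *WT/WT* and orange for *MIS/MIS*. *Wdfy1* is above 6.3 in the 3 *MIS/MIS* mice and at most 5.21 in the *WT/WT* mice, and *Dnaaf5* overlaps.

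As lists, 0 members of any were called. The 12 secretory genes tested were higher in *MIS/MIS* in 10 cases, beside 6139 of the 12691 genes tested, with a median log2 fold change of 0.66 against -0.01 over all genes, and 4 of them were higher without overlap between genotypes, beside 5.62% of all genes. *Bpifa1*, a secreted antibacterial protein of airway epithelium, was at 837, 909 and 289 CPM in Basal1 of the *WT/WT* mice and 2449, 2278 and 1761 CPM in the *MIS/MIS* mice. *Ltf* (lactoferrin) was at 574 to 901 CPM in the *WT/WT* mice and 960 to 1179 CPM in the *MIS/MIS* mice. The 15 genes of the list summed to 3525, 4493 and 7650 CPM in Basal1 of the *WT/WT* mice and 7025, 8152 and 7264 CPM in the *MIS/MIS* mice, which overlap, and to 9892 to 17881 CPM in the other basal cells.

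The basal identity list ran lower in *MIS/MIS*, in 17 of 20 genes beside 6552 of the 12691 tested, and its median was -0.38. Lower without overlap were 3 of them, *Krt5*, *Krt14* and *Cdh3* (P-cadherin), beside 4.84% of all genes. *Krt6a* and *Krt16*, keratins of activated epithelium from outside this list, were lower without overlap too. Their log2 fold changes were -1.74 (SE 0.53) and -1.36 (SE 0.43). They stand beside the same 4.84% of all genes and do not add to the count of the list. Much of the lower median of the basal identity list rested on *WT/WT* mouse 3, since it was 0.01 without that mouse. The medians of the extracellular matrix, protease, integrin and migration lists were -0.08, -0.26, -0.01 and -0.11.

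Whether a genotype difference was particular to Basal1 was tested on the ratio of Basal1 to the other basal cells within each mouse. Of 12488 genes 0 passed at an adjusted p below 0.05 (0.0%) with limma, 301 had an unadjusted p below 0.05, and the smallest adjusted p was 1.00. The difference of log2 fold changes was 1.53 (SE 0.31) for *Prom1*, 1.71 (SE 0.41) for *F5* and -0.99 (SE 0.33) for *Krt14*. The other basal cells are a mixture that differed between mice, with Basal4 at 57.1% of basal cells in *WT/WT* mouse 1 and at 0.105% in *WT/WT* mouse 2, and its part in these ratios was not tested.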

How the data were processed

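The 6 libraries were made with a 10x Genomics 3′ kit that counts UMIs. Per the labels, reads were processed with Cell Ranger 7.1.0 on mm10, while the study's methods name another version. The authors deposited UMI counts, not normalized, for each gene in each cell (another kind of value than a checked count table, because columns are joined by a mistyped separator) with each cell's library and cluster name. Their stated filters were 2500 to 7500 genes and at most 25% mitochondrial UMIs per cell, but 655 deposited cells, 63 of them Basal1, had more than 7500 genes (up to 7999) and were kept here. No doublets were called here. The clusters came from the authors, who named them by hand. Libraries of *WT/WT* mice were tied to the labels by animal number, and those of *MIS/MIS* mice by genotype alone.

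Counts were summed per mouse and cluster, and sums of fewer than 20 cells were left out of the cluster means. No such minimum was applied to the groups of Basal1 cells by number of markers. CPM ratios used an offset of 1 CPM. Genotypes were compared with limma 3.58.1 (voom, TMM scaling, Benjamini-Hochberg adjustment over all genes) in R 4.3.3, on genes with a count of at least 10 in 3 mice for a library of median size and a total of at least 15. The sums would allow a count model, which was not used because of that separator. Ratios to the other basal cells used an offset of 0.5 counts and limma with a trend. The code was tested on simulated data. P-values set a genotype difference against the spread between mice, and intervals and limits on a count of 0 cover counting error only. Of the cell barcodes, 67 occurred in more than 1 library, and no such barcode was named Basal1 in both.

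The members, the 20 gene lists and the tests were chosen with earlier results of these data known. Named genes were the 5 given markers, the 20 leading and 10 lowest genes, the 5 lowest p without overlap in each direction, *Dnaaf5* and *Wdfy1*, and members of the lists. Some list members (*Lama5*, *Ctsk*, *Vim* and others of lower level) were named after their values were seen. Alternatives were upper-quartile scaling, other filters, limma-trend, the stated cell filters, cells thinned to 5000 UMIs, leaving out each mouse, and leaving out the collagen I cells. 1 member of a list is not reported here.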

Additional observations from a re-analysis of the deposited data

How the results depend on the processing

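No paired analysis was possible because the *MIS/MIS* libraries carry no animal number of the labels, and count models were not run. Leaving out a mouse gave 0 to 1 genes higher in *MIS/MIS*, the 1 being *Wdfy1* without *WT/WT* mouse 2 (log2 fold change 1.94), and 0 lower. Over these omissions the median log2 fold change ran from -0.65 to 0.0092 for basal identity, -0.51 to 0.072 for proteases, 0.074 to 0.12 for YAP targets, 0.084 to 0.39 for AP-1 and -0.11 to 0.042 for growth factors. *WT/WT* mouse 3 gave the upper end for basal identity, proteases and AP-1, and *WT/WT* mouse 2 the lower end for proteases and growth factors and the upper end for YAP targets. The protease median was -0.0082 without the collagen I cells, and the YAP median 0.20 in thinned cells. *Dnaaf5* turned to -0.021 under limma-trend and to -0.14 without MUT1301. Without *WT/WT* mouse 2, *Fn1* turned to -0.25, *Sox11* to -0.28 and *Cdh6* to -0.13, and *Mmp12* turned to 0.41 without *WT/WT* mouse 3 and to 0.085 without MUT1306. Over the omissions *Dnaaf5* reached 0.18, *Fn1* 0.80, *Sox11* 0.87 and *Cdh6* 0.55, and *Mmp12* ran down to -0.997. Mesenchymal markers at least 2-fold higher numbered 1 without the collagen I cells and 1 without *WT/WT* mouse 3, against 3 with all cells, and migration genes at least 2-fold lower numbered 1 without that mouse, against 2. The cause was not tested in any of these cases. No other gene was called between genotypes under the alternatives run. Counts of list members past 2-fold moved by less than 1.5 times in the other lists, for example from 16 to 14 (collagen I cells left out) or 13 (*WT/WT* mouse 3 left out) for extracellular matrix and from 3 to 4 without that mouse for integrins and for growth factors. The difference in share ran from -6.29 to -0.379 percentage points.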
